A study of Mus musculus with 16 samples.

Results

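Trem1, Cd14, Clec4d and Clec4e are 4 genes for surface receptors with which myeloid cells sense danger signals, bacterial lipopolysaccharide and microbial glycolipids. They were taken by gene symbol from a table of 10296 genes, and all 4 were listed and passed the filter on low values. The data are RNA-seq libraries of sorted neutrophils from C57BL/6 mice that were germ-free (GF, raised without microbes) or specific-pathogen-free (SPF). Groups were GF lung (3 libraries), SPF lung (3), GF spleen (3), SPF spleen (3), GF blood (2) and SPF blood (2), all of Ly6G+ cells sorted on CD45, CD11b, Ly6G and DAPI. The study examined how neutrophils of the 3 tissues differ in germ-free mice. The labels give no age or sex, and they name a mouse for each library without saying that the libraries of a group are separate animals, so p-values measure only how much these libraries vary, and that variation may be technical.

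Trem1 (ENSMUSG00000042265) lies on chromosome 17 from 48232768 to 48246924 on the plus strand of GRCm38, with 2996 bases of annotated exon. Cd14 (ENSMUSG00000051439) lies on chromosome 18 from 36725067 to 36726798 on the minus strand, with 1732 bases of exon. Clec4d (ENSMUSG00000030144, chromosome 6, 123262111 to 123275265, plus strand) and Clec4e (ENSMUSG00000030142, chromosome 6, 123281789 to 123289870, minus strand) are adjacent and point towards each other across a gap of 6523 bases, with 1599 and 4965 bases of exon. Of the 31-base words in their annotated transcripts, none in Cd14 or Clec4d, 0.099% in Clec4e and 0.70% in Trem1 also occurred in another gene, so reads shared with copies could touch few of their counts. A processed pseudogene lies within a Trem1 intron on the other strand and overlaps none of its exons.

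TREM-1, the product of Trem1, has no signalling tail of its own. It works through the adaptor DAP12 (gene Tyrobp) and the kinase Syk, and it amplifies responses that Toll-like receptors begin. CD14 binds lipopolysaccharide and hands it to TLR4 and MD-2 (gene Ly96). Clec4e encodes Mincle and Clec4d encodes MCL, neighbouring C-type lectins that bind mycobacterial glycolipid, pair with the Fc receptor gamma chain (gene Fcer1g), and signal through Syk and Card9.

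The 250 bases before the start of Trem1, Clec4d and Clec4e are printed because Trem1 and Clec4e were higher in lung together while Clec4d, the neighbour of Clec4e, followed another pattern. They are RefSeq promoters on GRCm38.p6 at chr17:48232489-48232738 (plus strand), chr6:123261857-123262106 (plus strand) and chr6:123289872-123290121 (minus strand), each read 5′ to 3′ towards the start. Capitals mark GAGGAA, a PU.1-type word, on either strand, and TTNNGCAA, a C/EBP-type word, on either strand.
Trem1: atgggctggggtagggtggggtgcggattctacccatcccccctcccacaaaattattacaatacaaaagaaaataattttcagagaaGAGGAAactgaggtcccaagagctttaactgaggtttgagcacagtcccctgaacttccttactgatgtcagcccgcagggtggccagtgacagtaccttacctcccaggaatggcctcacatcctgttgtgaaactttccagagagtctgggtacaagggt
Clec4d: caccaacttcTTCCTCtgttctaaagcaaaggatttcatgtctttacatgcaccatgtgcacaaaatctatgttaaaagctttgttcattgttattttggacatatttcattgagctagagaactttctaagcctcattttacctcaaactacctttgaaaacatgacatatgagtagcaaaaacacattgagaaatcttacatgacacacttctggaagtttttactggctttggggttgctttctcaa
Clec4e: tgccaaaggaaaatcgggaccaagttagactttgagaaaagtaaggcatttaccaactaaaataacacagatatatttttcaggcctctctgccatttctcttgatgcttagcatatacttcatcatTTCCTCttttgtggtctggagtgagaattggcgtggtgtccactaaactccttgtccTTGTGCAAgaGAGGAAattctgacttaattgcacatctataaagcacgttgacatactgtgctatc

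Counted back from the base before the start, GAGGAA stood at -162 to -157 in Trem1, on the other strand at -240 to -235 in Clec4d, and in Clec4e at -56 to -51 and, on the other strand, at -123 to -118. The word TTNNGCAA occurred only in Clec4e, at -66 to -59, and none of the capitals overlap. An AP-1 word (TGANTCA) and an NF-kB consensus were also searched on both strands, with no match in these 3 windows. Among 32851 promoters of the same length in the table, 23.3% held GAGGAA, 9.6% TTNNGCAA, 6.7% TGANTCA and 7.3% the NF-kB consensus. The words were chosen after the sequences had been seen, and a match describes letters, not a bound site. The window of Cd14, which was also higher in lung, is not printed, so these positions do not cover it.

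Depth was uneven: reads recovered from the table ranged from 104213 to 3033941 per library, with medians of 856319 in lung, 199487 in spleen and 2712907 in blood, and 5 libraries (GF blood replicate 3, GF spleen replicates 1 and 4, SPF spleen replicates 1 and 4) held fewer than 250000. One read was worth 0.392 to 7.62 normalised counts. The 11 neutrophil markers were all listed, with none at 0 in any group, and their summed level was 34978 to 55340 in lung, 41035 to 77542 in spleen and 56174 to 94581 in blood. Transcripts of lung epithelium, endothelium and stroma summed to 3147 to 11988 in lung libraries, 27.2 to 53.4 in spleen libraries and 26.7 to 59.3 in blood libraries (12 of 19 markers listed). Red cell and platelet markers summed to 48.7 to 2082 in lung and 48.1 to 21992 in spleen, against 44323 to 99540 in blood.

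The 4 receptors stood at different levels in the same cells. Per kilobase of annotated exon, Cd14 averaged 2549 ± 424 normalised counts in lung, Trem1 1629 ± 238, Clec4e 353 ± 60.4 and Clec4d 350.4 ± 42.6 (SD, n = 6 libraries of both kinds of mice). Cd14 was the highest of the 4 in 6 of 6 lung libraries, where it ranked 12 to 24 among all annotated genes per kilobase and Trem1 ranked 24 to 37. Clec4e and Clec4d did not differ beyond their spread in lung. In spleen, Clec4d averaged 267 ± 94.6 per kilobase, Trem1 183 ± 43.6, Cd14 149 ± 96.6 and Clec4e 113 ± 25.1 (SD, n = 6), and neighbours in that order overlapped. In blood, Clec4d averaged 533 ± 166 per kilobase, Cd14 251 ± 108, Trem1 224 ± 26.4 and Clec4e 163 ± 41.5 (SD, n = 4). Cd14 and Trem1 overlapped in blood, as did Trem1 and Clec4e, while Clec4d lay above them. Clec4d was thus the highest of the 4 per kilobase in 4 of 4 blood libraries and in 5 of 6 spleen libraries, and Cd14 in the remaining spleen library. The level of Clec4e per kilobase depends on its long annotated exon length.

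**Figure D1:**
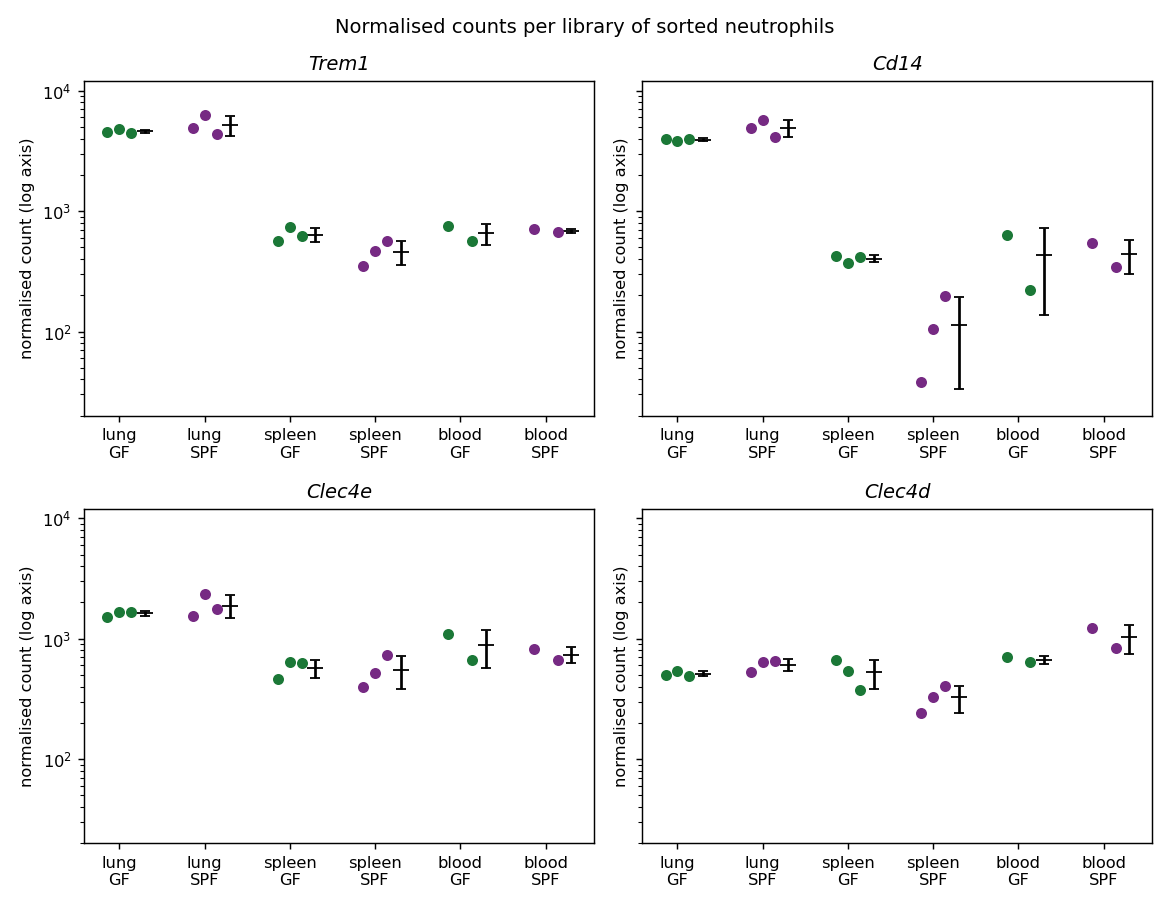
Normalised counts of the 4 receptor genes (y, log axis) in each library of lung, spleen and blood neutrophils from GF mice (green) and SPF mice (purple); black bars give the mean ± SD of a group. Trem1 and Cd14 lie between 3810 and 6268 in every lung library and under 750 in every spleen and blood library, whereas Clec4d lies between 244 and 1230 throughout.

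Trem1, the amplifying receptor, was higher in lung neutrophils than in those of either other tissue, in GF and in SPF mice. It measured 4556, 4757 and 4419 normalised counts in GF lung libraries, against 749 and 563 in GF blood libraries. In SPF lung libraries it measured 4934, 6268 and 4343, against 704 and 666 in SPF blood libraries. The lowest lung library was several-fold above the highest blood library, with no overlap. Lung lay above blood without overlap for 28.8% of all genes in GF mice and 29.6% in SPF mice. The fitted log2 difference between lung and blood was 2.81 in GF mice (SE 0.21, limma adjusted p = 7.6e-11), a 7.01-fold difference, and 2.90 in SPF mice (SE 0.21, limma adjusted p = 3.34e-11), a 7.47-fold difference. These differences, and all others below unless stated, are on the scale of log2(value + 1).

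Spleen stood with blood for Trem1. It measured 563, 733 and 619 in GF spleen libraries and 351, 466 and 564 in SPF spleen libraries. All 6 values were below every lung library. Within GF mice alone, lung lay above spleen without overlap for 21.2% of all genes, and within SPF mice alone for 18.2%. Lung exceeded spleen by 2.84 in GF mice (SE 0.19, limma adjusted p = 3.8e-12) and by 3.49 in SPF mice (SE 0.19, limma adjusted p = 1.93e-14). The 4 lung calls of Trem1 held under all 29 alternatives, between 2.61 and 3.65. In spleen against blood, Trem1 differed by -0.03 in GF mice (95% interval -0.47 to 0.40), and by -0.59 in SPF mice (limma adjusted p = 0.0857), where the SPF spleen libraries all lay below the SPF blood libraries (as for 23.7% of genes). Without SPF spleen replicate 4 that difference was -0.75 and passed (limma adjusted p = 0.0312), and it passed narrowly with the filter at 100 (limma adjusted p = 0.045) and with array quality weights (limma adjusted p = 0.04995).

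Cd14, the lipopolysaccharide co-receptor, showed the widest differences of the 4 between lung and either other tissue. It measured 3990, 3810 and 3949 normalised counts in GF lung libraries, against 638 and 222 in GF blood libraries. In SPF lung libraries it measured 4921, 5680 and 4140, against 538 and 342 in SPF blood libraries. Lung and blood did not overlap, and lung lay above blood in this way for 28.8% of all genes in GF mice and 29.6% in SPF mice. The GF blood libraries, of 2555255 and 132798 reads, stood further apart than the SPF blood libraries. Lung exceeded blood by 3.36 in GF mice (SE 0.55, limma adjusted p = 0.00179) and by 3.50 in SPF mice (SE 0.55, limma adjusted p = 0.000909). Without GF blood replicate 2 the GF difference was 4.11, and without replicate 3 it was 2.62, beside 2.61 for Trem1. The lead of Cd14 over Trem1 against GF blood thus rested on replicate 3.

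In spleen libraries Cd14 measured 421, 373 and 414 in GF mice, and 38.1, 104 and 198 in SPF mice. The lowest of these, SPF spleen replicate 1, rested on 5 reads (95% Poisson interval 12.4 to 88.9 normalised counts, counting error only). Every spleen value was below every lung value. Within GF mice alone lung lay above spleen without overlap for 21.2% of all genes, and within SPF mice for 18.2%. Lung exceeded spleen by 3.27 in GF mice (SE 0.49, limma adjusted p = 0.000914) and by 5.65 in SPF mice (SE 0.49, limma adjusted p = 9.22e-06). The second value was 6.18 without SPF spleen replicate 4 and 5.06 without replicate 1. The lung calls of Cd14 held under all 29 alternatives. Spleen was lower than blood by 2.15 in SPF mice (difference -2.15, SE 0.55, limma adjusted p = 0.0404) and differed by 0.09 in GF mice (SE 0.55). The SPF call is a weak one: it was lost when any library other than GF blood replicates 2 and 3 or SPF spleen replicates 1 and 4 was left out, with an adjusted p of up to 0.357 (without SPF blood replicate 3, in limma), while the difference stayed between -2.67 and -1.56.

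Clec4e, which encodes Mincle, was also higher in lung, by a smaller margin. It measured 1524, 1678 and 1661 normalised counts in GF lung libraries, against 1100 and 667 in GF blood libraries. In SPF lung libraries it measured 1541, 2334 and 1781, against 817 and 660 in SPF blood libraries. No blood library reached the lowest lung library (lung lay above blood without overlap for 28.8% of all genes in GF and 29.6% in SPF mice). Lung exceeded blood by 0.91 in GF mice (SE 0.25, limma adjusted p = 0.0138) and by 1.34 in SPF mice (SE 0.25, limma adjusted p = 0.000201). The GF difference fell to 0.56 without GF blood replicate 3 and was no longer called. Without GF lung replicate 4 it stayed at 0.90, and the call was narrowly lost (limma adjusted p = 0.0513).

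Clec4e measured 462, 637 and 625 in GF spleen libraries, and 396, 524 and 734 in SPF spleen libraries. These too lay below all lung libraries (as for 21.2% of genes within GF mice and 18.2% within SPF mice). Lung exceeded spleen by 1.504 in GF mice (SE 0.22, limma adjusted p = 9.56e-06) and by 1.79 in SPF mice (SE 0.22, limma adjusted p = 5.34e-07), and both calls held with any library left out. Between spleen and blood it differed by -0.59 in GF mice (limma adjusted p = 0.332) and by -0.45 in SPF mice (limma adjusted p = 0.268), neither past the threshold.

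Clec4d, which encodes MCL, was not higher in lung than in blood. It measured 504, 542 and 494 normalised counts in GF lung libraries, against 708 and 636 in GF blood libraries. In SPF lung libraries it measured 530, 643 and 648, against 1230 and 833 in SPF blood libraries. Lung lay below blood without overlap in both kinds of mice, as for 14.6% of all genes in GF and 23.9% in SPF mice. The difference was -0.39 in GF mice (SE 0.25, 95% interval -0.89 to 0.11, limma adjusted p = 0.381) and -0.74 in SPF mice (SE 0.25, limma adjusted p = 0.0328). The SPF call was lost without SPF blood replicate 3 (-0.46, limma adjusted p = 0.452) and without any 1 of the 3 SPF lung libraries (-0.79 to -0.65).

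Against spleen, Clec4d differed between GF and SPF mice in what passed. It measured 664, 536 and 379 in GF spleen libraries, which spanned the GF lung values, and the lung-spleen difference was -0.004 (95% interval -0.45 to 0.45). It measured 244, 326 and 409 in SPF spleen libraries, all below the SPF lung libraries (as for 18.2% of genes). There lung exceeded spleen by 0.91 (SE 0.22, limma adjusted p = 0.00529). The test of the difference between those comparisons gave -0.91 (limma adjusted p = 0.533) and did not pass. SPF spleen was also below SPF blood, by a difference of -1.65 (SE 0.25, limma adjusted p = 0.000129), which held with any library left out (-1.93 to -1.37), whereas GF spleen and GF blood overlapped (-0.39, limma adjusted p = 0.552).

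Set against the whole table, 3 of the 4 genes were called in GF lung against GF blood, all higher in lung, where 9.8% of 8299 genes passed. In SPF lung against SPF blood 4 of 4 were called, where 19.1% passed: 3 were higher in lung and 1, Clec4d, was lower. Against spleen, 3 of 4 were called in GF lung (10.2% of genes) and 4 of 4 in SPF lung (9.66%), all higher in lung. In spleen against blood, 0 of 4 passed in GF mice (0.88% of genes), with 1 at an unadjusted p under 0.05, and 2 of 4 in SPF mice (7.06%), both lower in spleen. In every lung comparison limma voom on recovered reads called the same members. The members were chosen with earlier results of these data known, so these counts are not a test of them as a set. Lower levels from fewer cells that carry a transcript and from less RNA per cell cannot be told apart in bulk libraries.

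**Figure D2:**
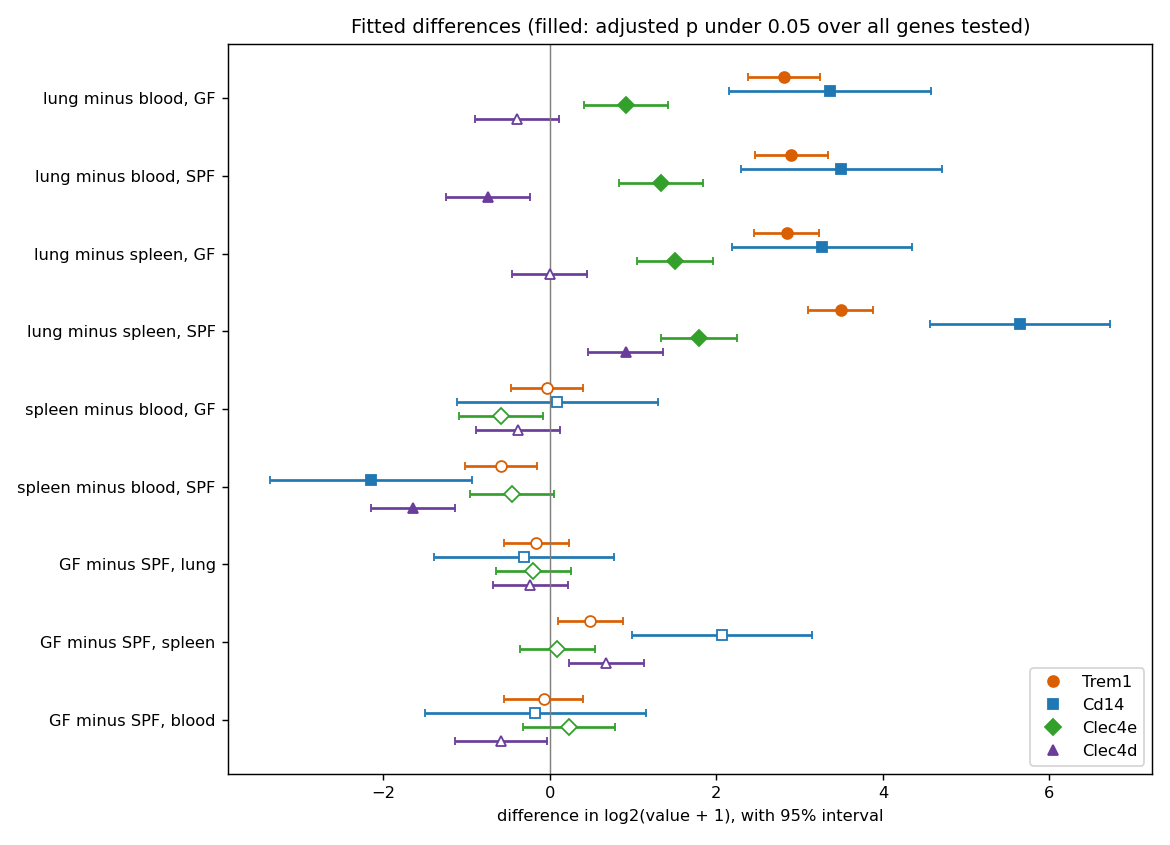
Fitted differences in log2(value + 1) with 95% intervals (x) for Trem1, Cd14, Clec4e and Clec4d in each comparison of tissues or of GF with SPF mice (y); filled symbols passed the threshold of 0.05. Trem1 and Cd14 lie between 2.81 and 5.65 in the 4 lung comparisons and Clec4e between 0.91 and 1.79, while Clec4d lies on both sides of 0, and no GF minus SPF symbol is filled.

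Germ-free and SPF neutrophils of the same tissue did not differ in any of the 4 genes at the threshold, in limma or in limma voom. In lung, 0 of 4 passed (0.0241% of all genes did), 0 at an unadjusted p under 0.05, and differences ran from -0.32 for Cd14 (95% interval -1.40 to 0.77) to -0.16 for Trem1 (95% interval -0.55 to 0.22). Every lung value of Cd14 in GF mice, 3810 to 3990, nonetheless lay below every one in SPF mice, 4140 to 5680, as for 5.95% of genes in that direction. In blood, 0 of 4 passed (1.33% of all genes did), 1 at an unadjusted p under 0.05: Clec4d, at 708 and 636 in GF and 1230 and 833 in SPF libraries (-0.59, limma adjusted p = 0.269).

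In spleen 0 of 4 passed (0.325% of all genes did) and 3 had an unadjusted p under 0.05. Cd14 was at 373 to 421 in GF spleen and 38.1 to 198 in SPF spleen, with no overlap (as for 6.22% of genes in that direction), a difference of 2.06 (SE 0.49, limma adjusted p = 0.121). It passed without SPF spleen replicate 1 (1.47, limma adjusted p = 0.0388), without SPF spleen replicate 4 (2.59, limma adjusted p = 0.0094) and without the 5 shallow libraries (1.82, limma adjusted p = 0.0028). Clec4d differed by 0.68 (limma adjusted p = 0.186) and Trem1 by 0.49 (limma adjusted p = 0.269), with overlapping values. Clec4e differed by 0.09 in spleen (95% interval -0.36 to 0.54), 0.22 in blood and -0.20 in lung. Averaged over the 3 tissues 0 of 4 passed (1.39% of all genes did), 0 at an unadjusted p under 0.05.

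The tests of whether a tissue difference itself differed between GF and SPF mice passed for 0 of 4 genes in limma and in limma voom. The background was 0.012% of genes for lung against blood, 0.012% for lung against spleen and 0.759% for spleen against blood, and 0, 3 and 2 of the 4 had an unadjusted p under 0.05 in that order. The smallest adjusted p was that of Clec4d in spleen against blood (1.26, SE 0.35, limma adjusted p = 0.077), which passed without GF spleen replicate 4 (1.48, limma adjusted p = 0.035) or SPF spleen replicate 4 (1.44, limma adjusted p = 0.0375). Cd14 in lung against spleen gave -2.38 (SE 0.70, limma adjusted p = 0.533), which passed without the 5 shallow libraries (-2.14, limma adjusted p = 0.00257). Cd14 in spleen against blood gave 2.24 (limma adjusted p = 0.226), which passed without SPF spleen replicate 4 (2.76, limma adjusted p = 0.0375).

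Ratios of 2 genes within a library do not depend on how libraries are scaled. The ratio of Clec4e to its neighbour Clec4d was 3.02, 3.10 and 3.36 in GF lung libraries and 2.91, 3.63 and 2.75 in SPF lung libraries. It was 0.69, 1.19 and 1.65 in GF spleen, 1.63, 1.61 and 1.79 in SPF spleen, 1.55 and 1.05 in GF blood, and 0.66 and 0.79 in SPF blood. All 6 lung libraries lay above all 10 others. In log2 terms lung exceeded blood by 1.69 (exact stratified permutation test, two-sided, p = 0.01, adjusted p = 0.0164 over 18 tests) and spleen by 1.19 (exact permutation p = 0.005, adjusted p = 0.015), both the smallest p these permutations can give. Spleen and blood differed by 0.50 (exact permutation adjusted p = 0.252).

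All 6 pairs of the 4 genes changed their ratio between lung and blood and between lung and spleen (exact permutation adjusted p between 0.015 and 0.03), and no pair passed between spleen and blood. Trem1 over Clec4d was 6.71 to 9.74 in lung, 0.847 to 1.63 in spleen and 0.572 to 1.06 in blood. Trem1 over Cd14 moved the other way: it was 1.003 to 1.25 in lung, 1.34 to 9.20 in spleen and 1.17 to 2.53 in blood, since Cd14 differed more between tissues than Trem1. The log2 difference for that pair was -0.58 between lung and blood and -1.29 between lung and spleen. Without the 5 shallow libraries it was -0.30 between lung and blood. So few permutations then remained that no pair could have passed the threshold in either lung comparison, whatever its values. That fit therefore cannot decide whether the ratios differ. The highest values of Trem1 over Cd14, 9.20 and 4.47, came from SPF spleen replicates 1 and 2.

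**Figure D3:**
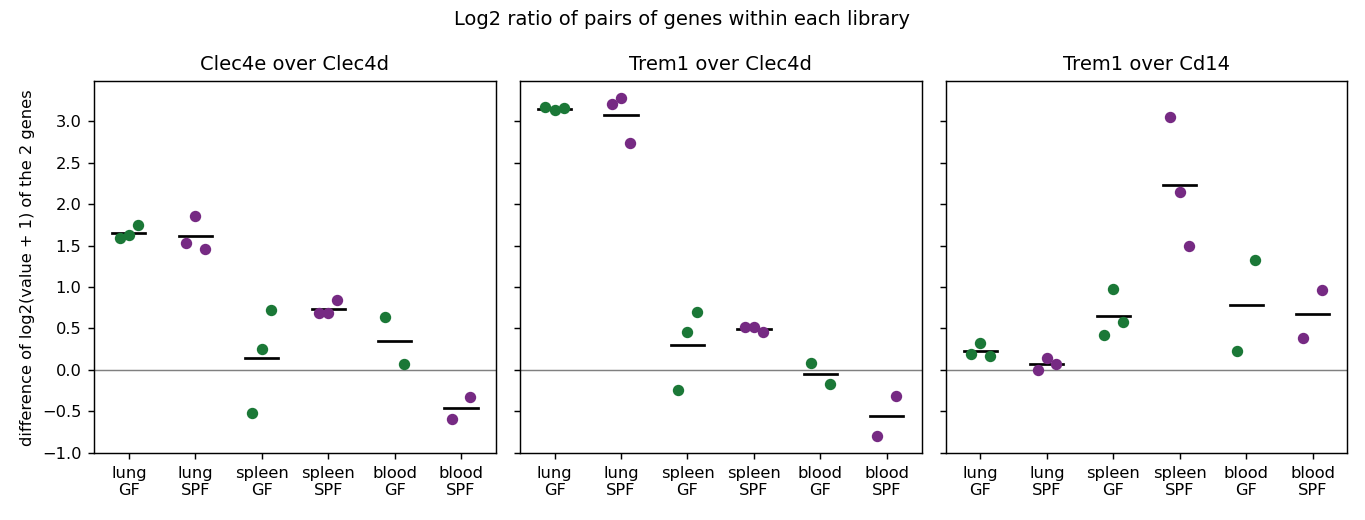
Log2 ratio of Clec4e to Clec4d, Trem1 to Clec4d and Trem1 to Cd14 (y) in each library of GF (green) and SPF mice (purple), with the group mean as a line. The 6 lung libraries stand above all others for the first pairs, and near 0 for Trem1 over Cd14, where SPF spleen libraries reach 3.05.

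Of 18 tested genes for adaptors and Syk-Card9 signalling, 0 passed in GF lung against GF blood, 2 rose and 3 fell in SPF lung against SPF blood, and 1 fell against spleen in each kind of mouse, where 9.8%, 19.1%, 10.2% and 9.66% of all genes passed. Tyrobp, which encodes DAP12, averaged 3573 ± 569 normalised counts in GF lung and 5316 ± 1126 in GF blood, and differed by -0.57 in GF mice (limma adjusted p = 0.108, but called in limma voom at an adjusted p of 0.00691 and without the 5 shallow libraries at 0.0126) and -1.06 in SPF mice (limma adjusted p = 0.000907, lost under quantile normalisation at -0.41). Fcer1g, the gamma chain, averaged 1168 ± 127 in SPF lung and 3189 ± 209 in SPF blood (SD, n = 3 and 2), a difference of -1.45 (limma adjusted p = 9.08e-05). In GF mice Fcer1g differed by -0.59 (limma adjusted p = 0.152) and was called in limma voom (adjusted p = 0.00818). Neither passed against spleen (-0.30 to 0.01). Syk was higher in SPF lung than in SPF blood by 0.85 (limma adjusted p = 0.026, lost without either SPF blood library or without SPF lung replicate 2 or 3) and passed in no other lung comparison (-0.27 to 0.40). Pik3cd, a PI3-kinase subunit gene, rose in SPF lung against SPF blood by 1.28 (limma adjusted p = 0.000749, lost without SPF blood replicate 3). Card9 did not pass in any lung comparison (-1.01 to 0.94). Its -1.01, in SPF lung against SPF blood, passed in limma voom (adjusted p = 0.0274) and in a fit of only those groups (limma adjusted p = 0.0424), at 22.2 ± 7.21 in SPF lung and 46.1 ± 11.4 in SPF blood (SD, n = 3 and 2). Beside the 0 calls in GF lung against GF blood, 5 genes of the list fell at an unadjusted p under 0.05, and 4 in limma voom. The median difference of the list was -0.38, -0.19, -0.23 and -0.23 in those comparisons, against 0.15, 0.16, 0.11 and 0.06 over all genes.

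The gene that fell against spleen was Sh3bp2, an adaptor that binds Syk (-1.41 in GF mice, limma adjusted p = 0.00366, lost without GF lung replicate 3 at -1.11, and -1.05 in SPF mice, limma adjusted p = 0.0393, lost without any 1 of 7 libraries and at -0.44 without the 5 shallow ones). In the TREM family list, 5 genes besides Trem1 were tested and 0 rose in lung in limma, in limma voom or at an unadjusted p under 0.05. Pglyrp1, which encodes a peptidoglycan-binding granule protein that can act as a TREM-1 ligand, was lower in lung than in blood by a difference of -0.78 in GF mice (limma adjusted p = 0.0235, lost without GF blood replicate 2 or GF lung replicate 2 or 4) and -1.68 in SPF mice (limma adjusted p = 2.01e-06), and lower than in GF spleen (-0.90, limma adjusted p = 0.00259). Trem3, an activating relative of Trem1, fell in SPF lung against SPF blood (-1.08, limma adjusted p = 0.00242, lost without SPF blood replicate 3 at -0.87). Treml1, a platelet gene, was lower than in blood (-3.05 in GF mice, limma adjusted p = 0.00259, lost without GF blood replicate 2 at -2.66), where red cell and platelet markers were also high.

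Of the other genes for lipopolysaccharide and Toll-like receptor complexes, 10 were tested. Tlr4 differed by 0.06 and 0.62 between lung and blood and by 0.04 and -0.25 between lung and spleen in GF and SPF mice, none past the threshold. Ly96, which encodes MD-2, did not pass either (-1.37 to 0.23), but its -1.37 in SPF lung against SPF blood (limma adjusted p = 0.0839) passed under 5 alternatives, among them limma voom (adjusted p = 0.0023) and a fit without the shallow libraries (limma adjusted p = 0.00949). Tlr2, the receptor for bacterial lipopeptides, which CD14 also serves, was higher in lung than in blood by 1.76 in GF mice and 2.67 in SPF mice, and than in spleen by 2.19 and 2.40 (limma adjusted p between 2.53e-08 and 3.18e-05). It averaged 876 ± 65.6 in GF lung, 192 ± 43.0 in GF spleen and 256 ± 27.1 in GF blood (SD, n = 3, 3 and 2). Over all genes, 9.8% and 19.1% passed against blood in GF and SPF mice, and 10.2% and 9.66% against spleen. In this list, 3 of the 10 rose and 1 fell in GF lung against GF blood, 3 rose and 0 fell in SPF mice, and 2 rose and 0 fell against spleen in either kind of mouse. Lbp, the lipopolysaccharide-binding protein gene, was the weakest of these in GF mice, at 18.8 ± 5.69 in GF lung and 3.51 ± 4.96 in GF blood (1.67, limma adjusted p = 0.04995): its call held in 4 of 16 fits with 1 library left out and in 4 of 12 other alternatives, and limma voom did not make it. Itgb2, the integrin beta-2 gene, was the one that fell (-0.68, limma adjusted p = 0.00994, lost without GF blood replicate 2 or GF lung replicate 4). Itgam, the integrin CD11b gene, rose in SPF lung against SPF blood (1.12, limma adjusted p = 0.000986, lost without SPF blood replicate 3). One that rose each time was Cd36, a scavenger receptor that endothelial cells also express, at 546 in GF lung, 0 reads in spleen and 6.08 in GF blood. It moved with the lung structural markers given above, and their part in it was not tested. The median of the list was 0.03 in GF and 0.74 in SPF mice against blood, and 0.08 and -0.16 against spleen.

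Among other C-type lectins, 9 were tested. Clec4n, which encodes Dectin-2 and lies near Clec4d, did not pass in any lung comparison (-0.27 to 0.83), and averaged 153 in lung, 135 in spleen and 122 in blood. Clec7a, the gene of Dectin-1, was not in the table. The only one higher in lung was Clec1a (4.18 in GF lung against GF blood, limma adjusted p = 2.7e-05), a gene of endothelial cells, at 72.2 in GF lung, 1.65 in GF spleen and 0.935 in GF blood, again beside the structural markers. Clec1b, the platelet lectin CLEC-2, was lower than in GF blood (-3.83, limma adjusted p = 0.000444), and the inhibitory Clec4a2 was lower than in GF spleen (-1.19, limma adjusted p = 0.0136, lost without GF spleen replicate 1 at -0.76 or GF lung replicate 4 at -1.01). Over all genes, 9.8% and 19.1% passed against blood in GF and SPF mice, and 10.2% and 9.66% against spleen. In this list, 1 rose and 1 fell in GF lung against GF blood, 1 rose and 4 fell in SPF mice, 1 rose and 1 fell against GF spleen and 1 rose and 0 fell against SPF spleen. The 4 that fell in SPF mice, Clec2d (-3.12), Clec1b (-3.002), Clec4a2 (-1.44) and Clec4a3 (-1.41), all lost the call without SPF blood replicate 3 (limma adjusted p between 0.061 and 0.135). List medians ran from -0.67 to -0.11.

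Of 15 tested genes of Myd88 and Trif signalling, the steps below Toll-like receptors, 0 rose and 2 fell against blood in limma in each kind of mouse, where 9.8% of all genes passed in GF and 19.1% in SPF mice, while limma voom had 2 that rose in SPF mice. Against spleen 0 passed in limma and in limma voom, and 2 fell at an unadjusted p under 0.05 in each kind of mouse. Myd88, the main adaptor, was lower in lung than in blood by differences of -0.80 and -0.84 in GF and SPF mice (limma adjusted p = 0.019 and 0.0082), calls lost without GF blood replicate 2 or any GF lung library, and without either SPF blood library. Irak4, its kinase, differed by -1.39 in GF mice (limma adjusted p = 0.0022). Tirap, a bridging adaptor, differed by -1.11 in SPF mice (limma adjusted p = 0.0149, lost without SPF blood replicate 3 or SPF lung replicate 3). List medians ran from -0.41 to -0.09.

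Genes that such receptors induce were, in contrast, higher in lung almost throughout. Over all genes, 7.83% rose in GF lung against GF blood, 12.5% in SPF lung against SPF blood, 8.03% against GF spleen and 7.68% against SPF spleen. Of 16 tested genes for inflammatory output, 14, 14, 14 and 15 rose in those comparisons, and 0 fell. This list, like the others, was chosen with earlier results of these data known. The median difference was 4.09, 3.81, 3.63 and 4.26, and 3.57 to 4.26 with genes at 0 reads in 1 group set to their bound, a floor of 3 reads over that group. Cxcl2, a neutrophil chemoattractant gene, averaged 1117 ± 177 in GF lung, 1.69 ± 2.93 in GF spleen and 1.17 ± 1.65 in GF blood, and 1398 ± 251 in SPF lung, 0 reads in SPF spleen and 1.07 ± 0.404 in SPF blood. Nfkbiz, which encodes the nuclear regulator IkB-zeta, rose by 4.65 to 5.31 in the 4 lung comparisons (limma adjusted p between 3.45e-15 and 7.46e-13). Il1a, the interleukin-1 alpha gene, averaged 124 ± 68.5 in GF lung and 110.04 ± 5.75 in SPF lung and was at 0 reads in SPF spleen and in blood. Il23a, a cytokine subunit gene, averaged 58.7 ± 7.52 in SPF lung and was at 0 reads in SPF blood. Icam1, an adhesion molecule gene, exceeded GF blood by 3.06 (limma adjusted p = 7.36e-08). Il1b, the gene of interleukin-1 beta, exceeded GF spleen by 3.04 (limma adjusted p = 2.41e-07), Osm, a cytokine gene, by 5.20 (limma adjusted p = 3.42e-07), and Plaur, the urokinase receptor gene, exceeded SPF spleen by 2.57 (limma adjusted p = 6.24e-09). Among 18 tested inhibitory receptors and feedback brakes, 3 to 5 rose against blood and 2 to 4 against spleen, and up to 3 fell. The median difference of these 18 was -0.01 in GF and -0.10 in SPF mice against blood, and -0.22 and -0.15 against spleen. Over all genes it was 0.15, 0.16, 0.11 and 0.06, and 9.8%, 19.1%, 10.2% and 9.66% passed. At an unadjusted limma p under 0.05, 3 rose and 1 fell against GF blood, 5 and 4 against SPF blood, 4 and 6 against GF spleen, and 3 and 4 against SPF spleen. Tnfaip3, which encodes the NF-kB brake A20, rose by 6.04 against GF spleen (limma adjusted p = 3.89e-14) and Nfkbia, which encodes IkB-alpha, by 2.40 (limma adjusted p = 0.00428). Sigirr, an inhibitory relative of the interleukin-1 receptors, averaged 12.7 ± 6.81 in GF lung and 10.2 ± 3.79 in SPF lung and was at 0 reads in GF spleen and in blood; its GF calls were lost without GF lung replicate 2 or 4, among others. Dok3, an inhibitory adaptor, fell in SPF lung against SPF blood (-1.05, limma adjusted p = 0.00113), as did the inhibitory receptor Cd300a (-0.82, limma adjusted p = 0.00303, lost without SPF blood replicate 3).

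**Figure D4:**
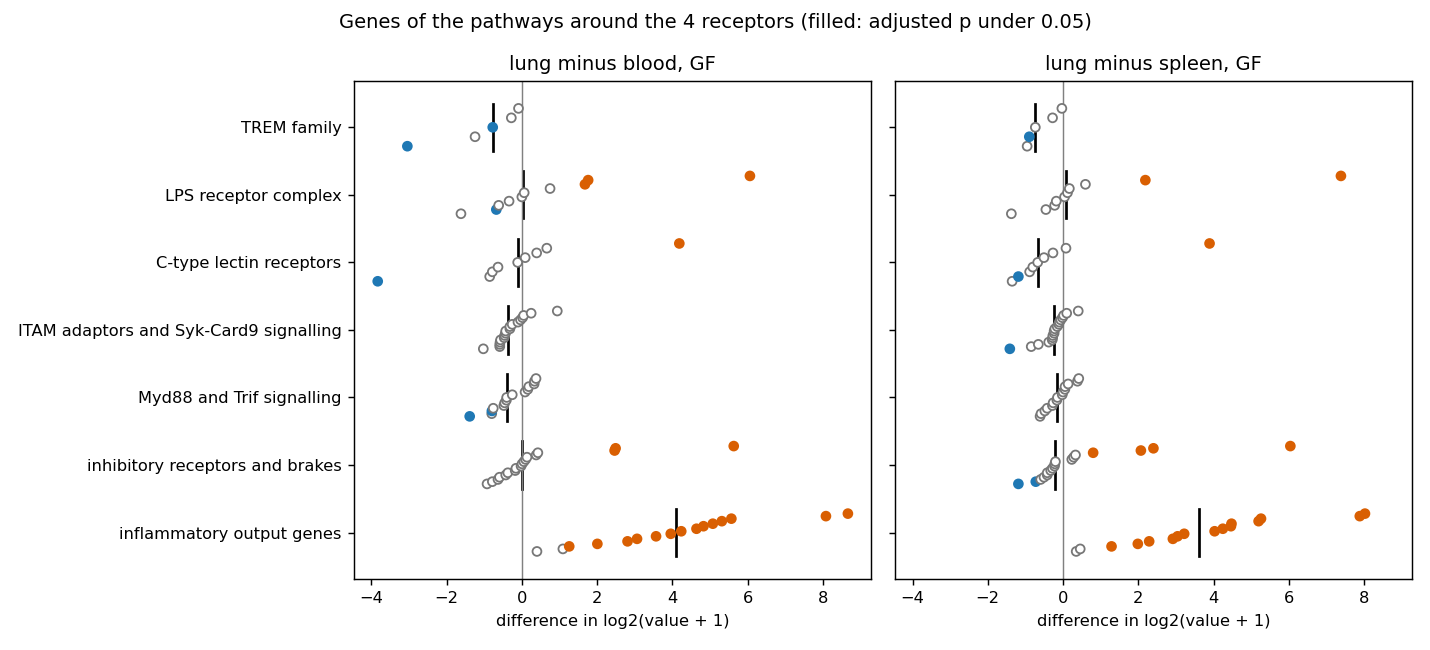
Fitted differences in log2(value + 1) (x) of the tested genes of 7 lists around the receptors (y; the 4 receptors themselves left out), for GF lung minus GF blood and GF lung minus GF spleen; filled points passed 0.05 (orange higher, blue lower in lung), and a black line marks each list's median. The inflammatory output list stands apart at medians of 4.09 and 3.63, with the adaptor, kinase and Myd88 lists between -0.41 and -0.15.

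Markers of neutrophils and of other cells were set beside these differences. Over all genes, 9.8% and 19.1% passed against blood in GF and SPF mice, and 10.2% and 9.66% against spleen. Of the 11 neutrophil markers, 0 rose and 2 fell in GF lung against GF blood, and 2 rose and 6 fell in SPF mice. Against spleen 0 rose and 4 fell in either kind of mouse. Their median difference was -0.73 and -1.37 against GF and SPF blood, and -0.30 and -0.49 against GF and SPF spleen. Over all genes the medians were 0.15, 0.16, 0.11 and 0.06. Of the 12 tested lung structural markers, 11 rose in GF lung against GF blood and 12 in the other lung comparisons. Within lung their sum was 5176, 11988 and 11739 in GF and 3147, 4455 and 6295 in SPF libraries. For monocytes and macrophages, which also express the 4 genes, 14 of 19 markers were listed, and they summed to 7105 to 9329 in lung, 13606 to 23400 in spleen and 11548 to 18412 in blood. C1qa, C1qb, C1qc and Cx3cr1 were at 0 reads in every SPF blood library, C1qb in every GF blood library and Cx3cr1 in every GF spleen library, and no listed marker was at 0 in all libraries of a lung group. Such a sum gives most weight to the most abundant markers. Of the 12 tested, 1 rose and 1 fell in GF lung against GF blood, 3 rose and 3 fell in SPF mice, and 0 rose and 3 fell against spleen in either kind of mouse. At an unadjusted limma p under 0.05, 3 rose and 2 fell against GF blood, and 7 rose and 3 fell against SPF blood. In limma voom 5 rose and 3 fell against SPF blood. The median difference of these 12 was -0.05 in GF and 0.86 in SPF mice against blood, and -1.05 and -0.46 against spleen. B cell and MHC class II markers, 10 of 10 listed, summed to 1022 to 1474 in lung, 679.6 to 1016 in spleen and 519 to 743 in blood. Of these 10, 6 rose against GF blood, 9 against SPF blood, 2 against GF spleen and 5 against SPF spleen, and 0 fell. Of 4 tested eosinophil, basophil and mast cell markers 2 rose in each lung comparison and 1 fell against SPF spleen, at sums of 119.7 to 267 in lung, 86.2 to 114 in spleen and 59.3 to 129.5 in blood. Of 2 tested T and NK cell markers 1 rose in SPF lung against SPF blood, and the 1 tested dendritic cell marker did not pass. Immediate early and handling response genes summed to 21738 to 29238 in lung, against 3026 to 8717 in spleen and 4622 to 10016 in blood, and 10 or 11 of 14 rose in each lung comparison. The part of these cells and of immediate early transcripts in the receptor differences was not tested, and how the organs were taken apart is not given in the sources used here.

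Across the 16 libraries Trem1, Cd14 and Clec4e followed one another, with Pearson r on log2(value + 1) of 0.96 for Trem1 and Cd14, 0.95 for Trem1 and Clec4e, and 0.94 for Cd14 and Clec4e. Clec4d stood off, at 0.17 with Trem1, 0.36 with Cd14 and 0.29 with Clec4e. These values describe libraries that share depth and tissue, and the gap between lung and the rest weighs on them. Over the 10 spleen and blood libraries alone r was 0.94 for Trem1 and Cd14, 0.79 for Trem1 and Clec4e, and 0.76 for Trem1 and Clec4d. It was 0.79 for Cd14 and Clec4d, 0.70 for Cd14 and Clec4e, and 0.60 for Clec4d and Clec4e, so Clec4d stood off less outside lung.

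The genes most like Trem1 over 16 libraries were Ccrl2 (r = 0.986), an atypical chemokine receptor gene, Nfkbiz (0.985), Ets2 (0.983), Nfkbid (0.982) and Ppp1r15a (0.979). Those most like Cd14 were Ets2 (0.978), Nfkbia (0.976), Ccrl2 (0.971), Samsn1 (0.966) and Plaur (0.955). Clec4e had Ets2 (0.955), Gpr35 (0.955), Rab20 (0.943), Ccrl2 (0.943) and Plaur (0.941). Ets2, a transcription factor gene, and Ccrl2 thus stood among the 5 nearest of all 3. Over spleen and blood alone the r with Trem1 was 0.82 for Ccrl2 and 0.39 for Nfkbiz. Clec4d had a separate set: Rhog (0.900), a small GTPase gene, Fth1 (0.897), the ferritin heavy chain gene, Arg2 (0.871), Ipo11 (0.868) and Arpc3 (0.860), and its r with the first 2 over spleen and blood was 0.94 and 0.96.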

How the data were processed

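RNA-seq libraries of sorted neutrophils were read from 1 deposited table with 10296 genes and 16 libraries. The submitters' processing notes name CASAVA, RSEM 1.3.1, limma and mm10; the annotation, filter and scaling are not given in the sources used here. The deposited signal is a linear normalised count per gene and library: low values are steps of reads plus 0.5, scaled per library, so reads were recovered by inverting this. The share of values under 10 reads within 0.05 of a whole read was 91.4% to 98.7%. Levels printed have the 0.5-read offset removed; tests used the deposited values.

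A gene was tested if 2 or more libraries reached a value of 10, which kept 8299 and removed 1997. Differences were fitted in limma 3.58.1 (R 4.3.3) on log2(value + 1) over 6 group means, with a trended and robust prior, two-sided, with Benjamini-Hochberg adjustment over all genes within each of 13 comparisons and a threshold of 0.05. This scale understates changes of low genes. Ratios were tested by exact permutation of tissue labels within GF and within SPF mice (scipy 1.17.1), with adjustment over 6 pairs and 3 comparisons. GENCODE M21 (GRCm38) gave positions for 10275 identifiers. The Poisson interval covers counting error only, the 95% intervals of differences are limma's and reflect variation between libraries, and 4 symbols on 2 lines were resolved by identifier.

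The members, 7 pathway lists and 9 marker lists were chosen with earlier results of these data known. Named were the members, their known partners, up to 4 genes of smallest adjusted p per list and lung comparison, and the 5 genes most like each member by Pearson r. Alternatives changed the offset, filter, scaling, prior, weights, samples and block. Same-numbered libraries did not deviate together, a check that cannot show whether they came from the same animal. The fit was tested on simulated data.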

Additional observations from a re-analysis of the deposited data

How the results depend on the processing

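The lung differences of Trem1 and Cd14, and those of Clec4e against spleen and against SPF blood, kept direction and call under all 29 alternatives. No difference that passed, as reported or in the alternative, changed sign, whereas 12 of the members' 52 differences changed sign in at least 1 alternative while missing the threshold in both. One of the alternatives, limma voom on recovered reads, was chosen after seeing the data, in place of a planned count test. That test was not run because in most libraries too small a share of the low values came out as whole reads.

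Clec4d in SPF lung against SPF blood lost its call under quantile normalisation (-0.55, limma adjusted p = 0.108), with a prior neither trended nor robust (-0.74, limma adjusted p = 0.149) and with a replicate block (-0.55, limma adjusted p = 0.225), and ran from -1.02 to -0.46 with 1 library left out. With the untrended prior the calls of Clec4d in SPF lung against SPF spleen (0.91, limma adjusted p = 0.0762) and of Clec4e in GF lung against GF blood (0.91, limma adjusted p = 0.137) were lost. That Clec4e difference was 0.56 (limma adjusted p = 0.138) without the libraries under 250000 reads and 0.56 to 1.27 with 1 library left out. In SPF spleen against SPF blood 1 member was called in place of 2 under quantile normalisation, the untrended prior, the replicate block and a fit of only those groups, 3 with the filter at 100 and with array quality weights (Trem1 added), and 1 to 3 with 1 library left out. In GF against SPF spleen 0 to 1 was called with 1 library left out, and 1, Cd14, without the libraries under 250000 reads, as in the mean of 3 tissues. Without those libraries the ratio of Clec4e to Clec4d differed by 1.55 between lung and blood and by 1.17 between lung and spleen. Too few permutations remained for either to pass the threshold, so the loss of these calls was fixed in advance. The cause of the other lost calls was not tested.

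Same-numbered libraries did not deviate together (r between -0.128 and 0.068 across tissues, and between -0.079 and 0.027 across GF and SPF). This cannot show whether they share an animal, so the block tests a shared number only. Quantile normalisation moved the median of all genes in GF lung against GF blood to -0.14, against 0.15 as deposited, and the share of calls that were higher in GF lung to 65.8% against GF blood and 58.7% against GF spleen, from 79.95% and 78.9%, with 60.6% in place of 79.4% in SPF lung against SPF spleen. Genes called in SPF spleen against SPF blood numbered 74 with the replicate block and 1101 with limma voom, against 586. Spleen depth limits Cd14 and Clec4d in SPF spleen, at 5 to 70 and 32 to 219 reads.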
